A study of Homo sapiens with 6 samples.

Results

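Interferon-linked members of the PARP family, PML and the SP100 family were examined in COV434 cells with and without BRG1. The set holds 10 genes: PARP9, PARP10, PARP12, PARP14, DTX3L, PML, SP100, SP110, SP140 and PARP1. They were chosen by gene symbol, with earlier results of these data known, and were all present among the 19899 genes of the deposited table. COV434 is an established human ovarian line that the study treats as SCCOHT, the small cell ovarian carcinoma with hypercalcemia, a cancer that lacks the SWI/SNF chromatin remodeling ATPase BRG1 (gene SMARCA4). RNA-seq was performed on 3 Control samples, transfected with a control plasmid (the methods name pCMV-neo and pCDNA3-neo without saying which was used in COV434), and on 3 BRG1 samples, transfected with PBJ5-BRG1. Both groups also received the puromycin resistance plasmid pBABE-puro, were selected with puromycin (2 to 3 µg/ml) from 24 hours after transfection and were harvested after 3 days of selection. The samples are therefore puromycin-selected populations of transiently transfected cells and not clones. The control and the BRG1 plasmids are different vectors, so that effects of the vector and of BRG1 cannot be told apart. The series calls the 3 samples of a group biological replicates, and p-values measure the spread between them.

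PARP proteins transfer ADP-ribose from NAD+ to other molecules. PARP1, the founding member, senses DNA breaks and builds chains of ADP-ribose, whereas PARP10, PARP12 and PARP14 attach single units, and PARP9 acts in a complex with the ubiquitin ligase DTX3L. PML builds the nuclear bodies that carry its name and SP100 is a constant component of them, while SP110 and SP140 are related chromatin readers best known from leukocytes. Most of these genes are textbook targets of interferon, through the factor ISGF3, which holds STAT2 and IRF9 and binds the interferon-stimulated response element (ISRE) in promoters. PARP1 is a housekeeping gene and serves here as the member outside that class.

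The promoter stretches below, from RefSeq (GRCh38.p14), show which members share an element at or before their start site. They are given because PARP9 and DTX3L lie head to head, as do SP110 and SP140. Windows from 250 bases before to 50 bases after each annotated start were searched on both strands for the ISRE core (GAAA, any 2 bases, GAAA) and for the AP-1 site TGANTCA. The capitals mark the match, which reads as the reverse complement (TTTC, any 2 bases, TTTC) when it lies on the other strand.
DTX3L and PARP9, shared (chr3:122564322-122564351, plus strand): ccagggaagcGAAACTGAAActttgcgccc
PARP14 (chr3:122680719-122680838, plus strand): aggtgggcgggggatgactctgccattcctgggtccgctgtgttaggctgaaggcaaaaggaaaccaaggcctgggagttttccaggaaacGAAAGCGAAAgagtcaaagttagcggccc
PARP12 (chr7:140062952-140063071, minus strand): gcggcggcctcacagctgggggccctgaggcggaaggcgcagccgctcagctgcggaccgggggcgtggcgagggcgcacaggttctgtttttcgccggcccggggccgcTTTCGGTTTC
SP140 and SP110, shared (chr2:230225716-230225745, plus strand): agttaggcaaTTTCACTTTTcttttcctct
SP100 (chr2:230416164-230416193, plus strand): ggagccctttcTGAGTCAgtctgtcggccg
Windows were matched by symbol for 8 of the 10 members, with 11 windows in all. PARP10 and PML had no matched window, so their promoters were not searched. The ISRE core was found for 4 of the 8, PARP9, DTX3L, PARP14 and PARP12, in 4 of the 11 windows, against 3.57% of all 35116 windows. A single match serves PARP9 and DTX3L, whose nearest start sites lie 38 bases apart. In PARP14 the match ends 20 bases before the start, and in PARP12 it ends at the last base before it. The AP-1 site was found in the SP100 window, where it spans bases 26 to 20 before the start, and in no window of the other 7 genes (7.71% of all windows hold it). The capitals in the SP140 and SP110 stretch mark a relaxed ISRE core, with any base in place of its first G, that was chosen after the letters of these windows were seen. It occurs in 10.5% of all windows and in those of 6 members, PARP9, DTX3L, PARP14, PARP12, SP110 and SP140, with both start sites of SP110 included. PARP1 held none of the 3 patterns. These matches describe letters and not binding.

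Total estimated counts ranged from 29699741 (BRG1 sample 3) to 63613710 (BRG1 sample 1). Values below are normalised counts, that is estimated counts divided by a size factor per sample, and a gene was called when its adjusted p was under 0.05 over all genes tested. SMARCA4, the transfected gene, had normalised counts of 1439, 1676 and 1538 in Control samples 1 to 3 and 108655, 79075 and 78589 in BRG1 samples 1 to 3, in which plasmid and cellular transcripts cannot be told apart. SMARCA2, the alternative ATPase gene that SCCOHT also lacks, had 16.4 ± 10.9 (SD, n = 3) in Control against 24.1 ± 15.9 with BRG1. Among the granulosa cell genes FOXL2 was at 0 or 1 count in every sample, and FSHR averaged 0.252 normalised counts in Control and 1.81 with BRG1. Others were expressed, with averages in Control and BRG1 samples of 295 and 408 for AMH, 41.9 and 38.2 for INHA, and 23.3 and 322 for CYP19A1. Of 11 leukocyte markers, 5 held 3 counts or fewer in every sample, while PTPRC had 505 ± 167 (SD, n = 3) in Control against 519.7 ± 185 with BRG1.

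Of the 10 members, 8 were called higher in BRG1 samples and 0 lower, by DESeq2 and by edgeR. As the members were chosen with earlier results known, these counts are a description and not a test. DESeq2 called 11.0% of all 15991 genes higher and 1.84% lower, and edgeR called 9.57% and 1.02% of 14246. With the replicate block the members gave 8 higher and 0 lower again, against 13.4% and 6.62% of all genes in DESeq2 and 13.7% and 5.68% in edgeR. The groups did not overlap for 9 members, all higher with BRG1, against 16.7% of all genes higher and 9.92% lower. Without adjustment, PARP1 passed p under 0.05 as lower with the block (DESeq2 p 0.0193, edgeR p 0.0298) but not without it (DESeq2 p 0.254, edgeR p 0.188). After adjustment it did not pass with the block either (DESeq2 adjusted p 0.0838, edgeR adjusted p 0.106). The share of all genes lower at the unadjusted cut was not counted, so nothing is concluded from it. The fold changes of the called members ran from 3.07 for PML to 177 for SP100. SP140 and PARP1 were not called. As these are bulk samples, more RNA per cell and more cells expressing a gene cannot be told apart. The median log2 fold change was 3.55 over the 10 members and -0.01 over all genes tested.

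**Figure D1:**
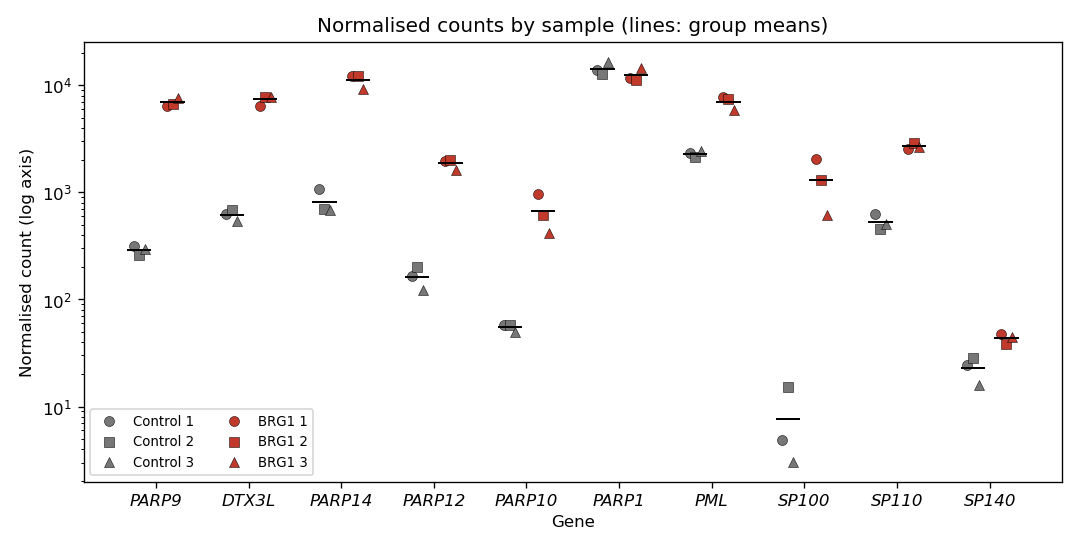
Normalised counts (log axis) of the 10 genes in each of 3 Control samples (grey) and 3 BRG1 samples (red), with the symbol giving the replicate number and the line the group mean. For PARP1 the groups overlap. For the other 9 genes every BRG1 sample lies above every Control sample.

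PARP9 and its partner DTX3L rose together. PARP9 (chromosome 3, 122527924 to 122564577, minus strand) had normalised counts of 316, 261 and 296 in Control samples 1 to 3 and 6471, 6726 and 7605 in BRG1 samples 1 to 3. The lowest BRG1 sample was 20.5 times the highest Control sample, and the fitted fold was 23.8 (log2 fold change 4.57, standard error 0.15, DESeq2 adjusted p 2.7e-190, edgeR adjusted p 6.1e-06). By p-value PARP9 ranked 3 among all genes. DTX3L (chromosome 3, 122564338 to 122575203, plus strand), the ubiquitin ligase that binds PARP9, had 633, 686 and 541 in Control samples 1 to 3 and 6475, 7846 and 7822 in BRG1 samples 1 to 3. Its groups did not overlap, and its fold was 11.9 (log2 fold change 3.58, standard error 0.17, DESeq2 adjusted p 1.7e-98, edgeR adjusted p 2.7e-05). Both genes varied little between replicates, with coefficients of variation of 8.58% and 10.6% among BRG1 samples. The fitted fold was larger for PARP9 than for DTX3L. The PARP9 to DTX3L ratio of normalised counts was 0.498, 0.381 and 0.548 in Control samples 1 to 3 and 0.999, 0.857 and 0.972 in BRG1 samples 1 to 3. The difference of the log2 ratio was 1.00, larger than the spread within either group (SD 0.27 and 0.12, n = 3). The two-sided exact permutation p was 0.1, the smallest that 3 samples against 3 allow. Exons of DTX3L cover 1.56% of the exonic bases of PARP9, and exons of PARP9 cover 2.41% of those of DTX3L, so that few reads of these libraries, which do not keep strand, could fit both.

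The other 3 interferon-linked PARP genes rose between 11.5- and 13.8-fold. PARP14 (chromosome 3, 122680839 to 122730840, plus strand), which joins ADP-ribose-binding macrodomains to a transferase domain, had 1069.6, 705 and 679.9 in Control samples 1 to 3 and 12236, 12241 and 9325 in BRG1 samples 1 to 3. Its fold was 13.8 (log2 fold change 3.79, standard error 0.23, DESeq2 adjusted p 2.5e-57, edgeR adjusted p 8.6e-05). PARP12 (chromosome 7, 140023749 to 140062951, minus strand), a zinc finger PARP with antiviral activity, had 167, 199 and 122 in Control samples 1 to 3 and 1974, 2008 and 1618 in BRG1 samples 1 to 3. The lowest BRG1 value was 8.12 times the highest Control value, and the fold was 11.5 (log2 fold change 3.53, standard error 0.23, DESeq2 adjusted p 1.0e-51, edgeR adjusted p 1.1e-04). PARP10 (chromosome 8, 143977153 to 144012772, minus strand), which restrains growth and acts on signaling kinases, had 57.3, 57.5 and 50.0 in Control samples 1 to 3 and 975, 614 and 419 in BRG1 samples 1 to 3. Its BRG1 samples were spread widely, with a coefficient of variation of 42.1%, yet all lay above Control (fold 12.2, log2 fold change 3.61, standard error 0.34, DESeq2 adjusted p 7.7e-24, edgeR adjusted p 4.8e-04). Exons of GRINA and SPATC1 cover 8.64% of its exonic bases. Of the 3428 stretches of 78 bases (the read length) in the main PARP10 transcript, 0 occur in other genes, and its other transcripts were not searched. The 95% intervals of the folds of DTX3L, PARP10, PARP12 and PARP14 overlapped, at 9.50 to 15.0, 7.67 to 19.6, 8.47 to 15.7 and 10.1 to 18.9. That of PARP9 was 19.3 to 29.4, which overlapped the interval of PARP10 and lay above those of DTX3L, PARP12 and PARP14. The PARP9 to PARP14 ratio was 0.295, 0.371 and 0.435 in Control and 0.529, 0.549 and 0.815 in BRG1 samples 1 to 3, a log2 difference of 0.77 with a two-sided exact permutation p of 0.1, again the smallest possible.

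PML and SP100, both of the PML nuclear body, rose from very different starting levels. PML (chromosome 15, 73994673 to 74047827, plus strand), the scaffold of the body, was already well expressed in Control. It had 2346, 2138 and 2421 in Control samples 1 to 3 and 7741, 7528 and 5894 in BRG1 samples 1 to 3, and its fold of 3.07 was the smallest among the called members (log2 fold change 1.62, standard error 0.16, DESeq2 adjusted p 5.5e-21, edgeR adjusted p 2.4e-04). SP100 (chromosome 2, 230415942 to 230545606, plus strand), a resident of the same bodies that restrains viral gene expression, was close to absent in Control, where the samples held 4, 13 and 4 estimated counts. Its normalised counts were 4.87, 15.2 and 3.03 in Control samples 1 to 3 and 2035, 1294 and 615 in BRG1 samples 1 to 3. The fold was 177 with a wide 95% interval of 81.5 to 385 (log2 fold change 7.47, standard error 0.57, DESeq2 adjusted p 8.0e-37, edgeR adjusted p 4.0e-04), and it rests on those few Control counts. Without Control sample 2 the log2 fold change was 8.43. The lowest BRG1 sample still held 40.3 times the highest Control sample. Within the BRG1 group SP100 was the most variable member, with a coefficient of variation of 54.0%.

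Of the relatives of SP100, SP110 was called higher and SP140 was not, and the difference between them was not tested. SP110 (chromosome 2, 230165186 to 230225729, minus strand), a nuclear body protein with bromodomain and SAND domain, had 624, 456 and 506 in Control samples 1 to 3 and 2530.1, 2874 and 2676 in BRG1 samples 1 to 3. The groups were well separated and the fold was 5.10 (log2 fold change 2.35, standard error 0.17, DESeq2 adjusted p 1.7e-39, edgeR adjusted p 1.3e-04). Exons of other genes, mainly an unnamed transcript (ENSG00000225963) and SP140, cover 19.4% of the exonic bases of SP110, and 16% of the stretches of 78 bases (the read length) in its main transcript also occur in other genes, so that part of its counts may belong to them. SP140 (chromosome 2, 230203110 to 230313215, plus strand), a chromatin reader of lymphoid and myeloid cells, was low in all samples, with 24.4, 28.1 and 15.9 in Control samples 1 to 3 and 47.1, 38.2 and 44.8 in BRG1 samples 1 to 3. The groups did not overlap, but the difference did not pass the test (log2 fold change 0.95, standard error 0.45, DESeq2 adjusted p 0.195, edgeR adjusted p 0.199; unadjusted DESeq2 p 0.0369). The 95% interval of its fold ran from 1.04 to 3.56. Of its 78-base stretches 8.24% also occur in other genes, chiefly in the neighbouring relative SP140L. The SP110 to SP100 ratio was 128, 29.9 and 167 in Control and 1.24, 2.22 and 4.35 in BRG1 samples 1 to 3, with a two-sided exact permutation p of 0.1. Leukocyte markers other than PTPRC summed to between 15.2 and 22.0 normalised counts in Control and between 31.9 and 52.2 in BRG1 samples. Within these sums LYZ alone held 2.44, 0 and 0.757 in Control samples 1 to 3 and 13.8, 20.8 and 22.4 in BRG1 samples 1 to 3. Of the 11 markers 5 were tested by DESeq2 and 2 by edgeR. LYZ was the 1 called higher and 0 were lower, against 11.0% and 1.84% of all genes in DESeq2. It had 1.06 ± 1.25 (SD, n = 3) in Control against 19.0 ± 4.57 with BRG1 and a DESeq2 adjusted p of 0.00261. LYZ was not called without BRG1 sample 2, and CD3E, CD2 and MS4A1 held at most 1 count in any sample. The part of such markers in the SP110 and SP140 values was not tested.

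PARP1 (chromosome 1, 226360210 to 226408154, minus strand), the DNA break sensor, was the member with overlapping groups. It had 13901, 12700.4 and 16386 in Control samples 1 to 3 and 11676, 11277 and 14467 in BRG1 samples 1 to 3. BRG1 sample 3 lay within the Control range and the other BRG1 samples below it. PARP1 was not called (log2 fold change -0.20, standard error 0.18, DESeq2 adjusted p 0.629, edgeR adjusted p 0.502). The 95% interval of the fold was 0.685 to 1.11, and its upper bound lay below the lower bound for PML (2.45).

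**Figure D2:**
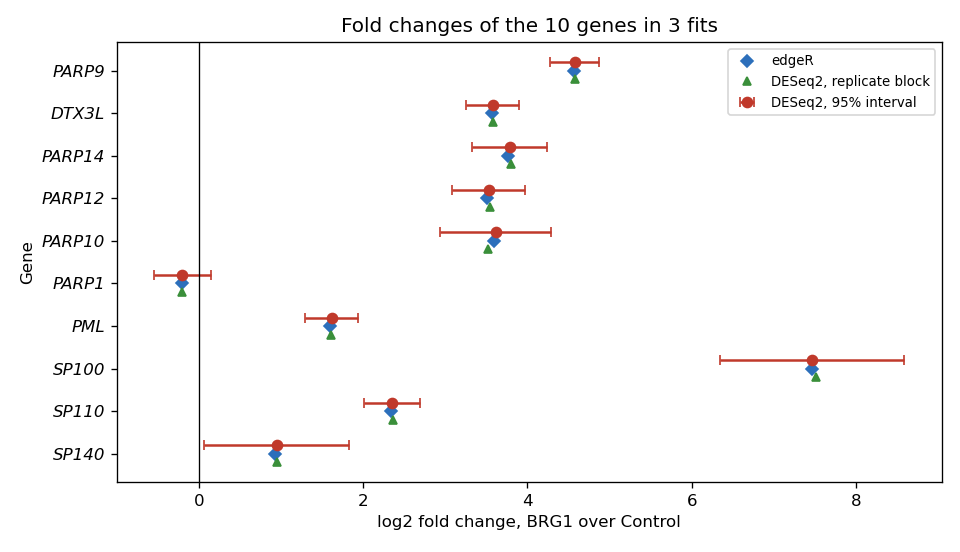
Log2 fold change of BRG1 over Control for the 10 genes in 3 fits: DESeq2 with its 95% interval (red), edgeR (blue) and DESeq2 with the replicate number as a block (green). The 3 estimates of each gene nearly coincide, and the interval of PARP1 alone includes 0.

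Samples with the same replicate number deviated together, so folds within numbers were also formed. PARP9 was 20.5, 25.7 and 25.7 times higher within numbers 1, 2 and 3, and DTX3L 10.2, 11.4 and 14.5 times. For each gene the 3 folds lay close together. SP100 gave 418, 84.9 and 203 and PARP10 17.0, 10.7 and 8.39, the widest ranges among the called PARP and SP100 family members. SP100 and PARP10 were both highest in BRG1 sample 1 and lowest in BRG1 sample 3, the library with the fewest counts, and 5 of the 8 called members were lowest there. SMARCA4 was also highest in BRG1 sample 1, and the part of BRG1 level or depth in these differences was not tested. PML gave 3.30, 3.52 and 2.43 and SP110 4.06, 6.30 and 5.29. PARP1 was lower within every number, at 0.840, 0.888 and 0.883 times Control. With the replicate block its DESeq2 p was 0.0193 unadjusted and 0.0838 adjusted.

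**Figure D3:**
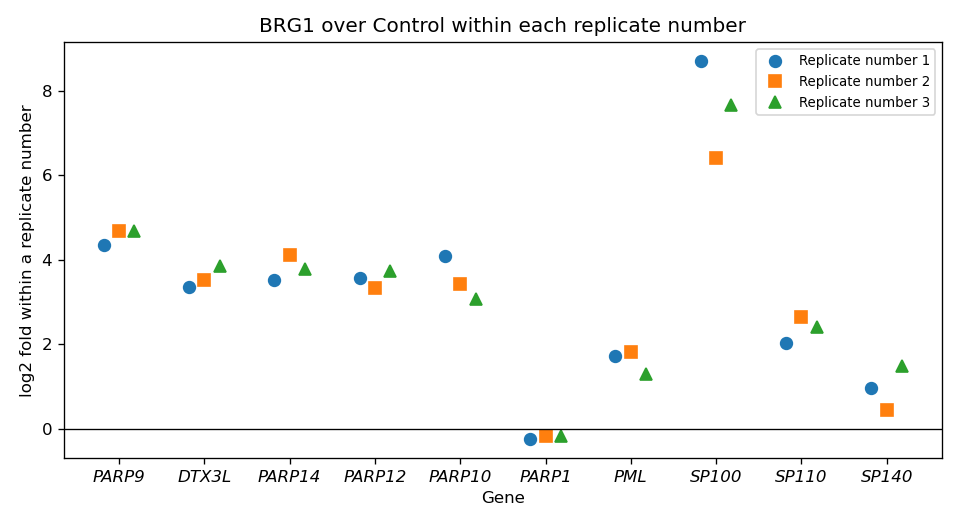
Log2 fold of BRG1 over Control within each replicate number (symbols) for the 10 genes. All 3 folds lie above 0 for 9 genes and slightly below 0 for PARP1, and the symbols of SP100 are the most spread, between 6.41 and 8.71.

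Levels of different genes were compared per length, as normalised counts per kilobase of the main annotated transcript (GENCODE release 44). Which transcripts these cells use was not examined, so a level and its place may be off where another transcript dominates. In Control PARP1 was the highest at 3602 ± 473 (SD, n = 3), followed by PML at 414 ± 26.4. DTX3L (107 ± 12.8), PARP14 (106 ± 28.4), PARP9 (95.6 ± 8.98) and SP110 (85.4 ± 13.9) came next, and in that order each overlapped its neighbour. The lowest were PARP12, PARP10, SP140 and SP100, the last at 1.43 ± 1.22. With BRG1 the order changed below PARP1. PARP9 became the second at 2277 ± 195 against 3136 ± 437 for PARP1, and the samples of these genes did not overlap. PARP14 (1464 ± 219), DTX3L (1279.7 ± 136) and PML (1268 ± 182) overlapped in turn. SP100 moved from the last place to the eighth (243 ± 131), where it overlapped PARP10 (191 ± 80.4), and SP140 became the lowest at 13.4 ± 1.43.

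**Figure D4:**
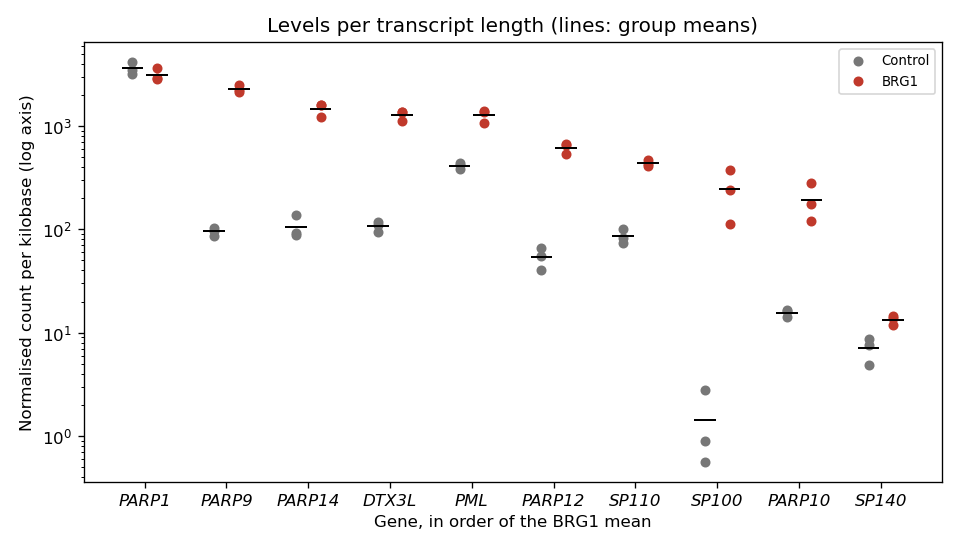
Normalised counts per kilobase of transcript (log axis) for Control (grey) and BRG1 samples (red), 3 points each with the mean as a line, in the order of the BRG1 means. PARP9, PARP14, DTX3L and PML reach levels between 1268 and 2277, below PARP1 at 3136.

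The other genes of these pathways were then counted from lists of named genes. Among the 12 other PARP genes, 11 were tested, 2 were called higher and 0 lower, against 11.0% and 1.84% of all genes, with a median log2 fold change of 0.19. The called genes were ZC3HAV1, the zinc finger antiviral protein, with 2743 ± 474 (SD, n = 3) in Control against 5448 ± 274 with BRG1 (log2 fold change 0.99, DESeq2 adjusted p 2.2e-07, edgeR adjusted p 0.00317), and TIPARP, a target of the aryl hydrocarbon receptor, with 404 ± 183 (SD, n = 3) in Control against 1719.5 ± 1016 with BRG1 (log2 fold change 2.09, DESeq2 adjusted p 4.0e-04, edgeR adjusted p 0.0538). The edgeR test thus called ZC3HAV1 alone. With the replicate block PARP6 (DESeq2 adjusted p 1.1e-04, edgeR adjusted p 0.00707) and PARP8 (DESeq2 adjusted p 0.00161, edgeR adjusted p 0.0149) were called as well, both higher, and TIPARP was called by both tools (DESeq2 adjusted p 2.7e-27, edgeR adjusted p 9.7e-05). PARP15, which lies between DTX3L and PARP14, held 3 counts or fewer in every sample. PARP2, the closest relative of PARP1 in DNA repair, missed the threshold (log2 fold change -0.15, DESeq2 adjusted p 0.808).

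Of 11 enzymes that remove ADP-ribose and cofactors of PARP1, 1 was called higher and 0 lower, against 11.0% and 1.84% of all genes, with a median log2 fold change of -0.19. This was ADPRHL2, a hydrolase of serine ADP-ribose (log2 fold change 0.54, DESeq2 adjusted p 0.0252, edgeR adjusted p 0.0684), which was not called by edgeR and was lost without 4 of the 6 samples in turn (Control 1, Control 3, BRG1 1 and BRG1 2, with 0 genes called each). With the replicate block it was called by both tools (DESeq2 adjusted p 8.8e-04, edgeR adjusted p 0.0115). With the block OARD1, which removes terminal ADP-ribose, was called lower (DESeq2 adjusted p 0.0136, edgeR adjusted p 0.0279). ADPRH, an arginine ADP-ribose hydrolase, held 0 counts in each Control sample and 11, 10 and 2 in BRG1 samples 1 to 3, and was not called (DESeq2 adjusted p 0.0596). Of the 4 other Deltex ligases, relatives of DTX3L, 1 was called higher and 0 lower, against 11.0% and 1.84% of all genes. This was DTX4, with 134 ± 9.14 (SD, n = 3) in Control against 334 ± 75.4 with BRG1 (log2 fold change 1.33, DESeq2 adjusted p 1.9e-06, edgeR adjusted p 0.00946). The remaining 3 lay between -0.13 and 0.23.

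Of 19 partners of PML in nuclear bodies 1 was called higher and 0 lower, against 11.0% and 1.84% of all genes, and the median log2 fold change was -0.03. The 18 genes not called lay between -0.37 (BLM, the helicase) and 0.23 (SUMO3), and they include DAXX and ATRX, a histone chaperone pair of the bodies, with -0.04 and -0.19. The called gene was SP140L, the relative of SP140, with 8.53, 3.52 and 0 in Control samples 1 to 3 and 371, 252 and 94.0 in BRG1 samples 1 to 3 (log2 fold change 6.01, DESeq2 adjusted p 6.4e-13, edgeR adjusted p 0.00425). Its samples were ordered like those of SP100, highest in BRG1 sample 1 and lowest in BRG1 sample 3. Of its 78-base stretches 10% also occur in other genes, chiefly in SP140.

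STAT2 and IRF9, of the factor that acts on the ISRE, rose with BRG1, while IRF1, a further activator of interferon targets, was not called. STAT2 had 3547 ± 617 (SD, n = 3) in Control against 8912 ± 781 with BRG1, and IRF9, the DNA-binding subunit, 1549.8 ± 32.8 (SD, n = 3) in Control against 6796 ± 686 with BRG1. Their log2 fold changes were 1.33 and 2.13 (DESeq2 adjusted p 2.8e-12 and 1.1e-52). IRF1 missed the threshold (log2 fold change 1.38, DESeq2 adjusted p 0.586), with 6400.4, 5759.8 and 570.1 in Control samples 1 to 3 and 14244, 16698 and 2233 in BRG1 samples 1 to 3. Both samples numbered 3 lay far below the others of their groups. With the replicate block it was called higher (DESeq2 adjusted p 1.1e-21, edgeR adjusted p 5.7e-04), at 2.23, 2.90 and 3.92 times Control within the numbers.

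Whether the change extended along the chromosome was examined with the 3 nearest measured genes on each side of every member. Of 38 such genes 33 were tested, 5 were called higher and 0 lower by DESeq2 (15.2%, against 11.0% of all genes), and edgeR called 3 higher. Around PARP9, DTX3L and PARP14 on chromosome 3, none of the tested neighbours was called (0 of 6), and KPNA1 and WDR5B on one side and HSPBAP1 on the other had log2 fold changes of -0.02, 0.12 and 0.03. In the chromosome 2 cluster SP140L rose between SP140 and SP100, while CAB39, the next gene beyond SP100, had 0.03. The other called neighbours were EPPK1, an epiplakin gene near PARP10 (log2 fold change 4.28, DESeq2 adjusted p 2.7e-11), and LOXL1, ISLR and ISLR2 near PML. LOXL1, a crosslinking enzyme of elastic fibres, and ISLR were at 3 counts or fewer in every Control sample and reached means of 76.0 and 26.9 with BRG1 (DESeq2 adjusted p 6.3e-08 and 6.0e-04). ISLR2 was called by DESeq2 (adjusted p 0.00577) but not by edgeR (adjusted p 0.0633), and ISLR did not pass the edgeR count filter and was not tested there. Genes next to PARP12 and PARP1 were not called.

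**Figure D5:**
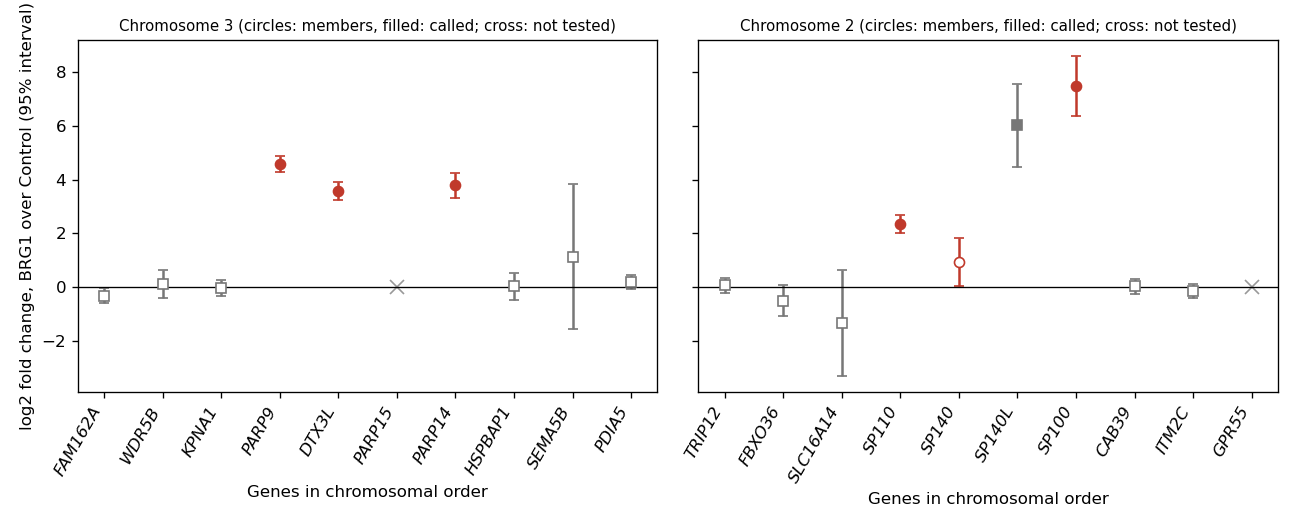
Log2 fold change with 95% interval (y axis) of the genes around the chromosome 3 and chromosome 2 members in chromosomal order (x axis). Circles are members and squares other genes, filled where called, and a cross marks a gene without an adjusted p. PARP9, DTX3L and PARP14 stand at 4.57, 3.58 and 3.79, between neighbours whose intervals include 0 except for FAM162A.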

How the data were processed

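RNA-seq of 3 Control and 3 BRG1 samples was analysed. Estimated counts for each gene were deposited. The authors aligned reads to hg38 with STAR (version 2.5.3a), quantified transcripts of GENCODE release 24 with Salmon (version 0.8.2) and summed them to genes scaled by transcript length, so that the values are not whole-read counts. The library kit does not keep strand. Here they were rounded and tested with DESeq2 1.42.0 (Wald test, no covariate, Benjamini-Hochberg adjustment over all genes, called at an adjusted p under 0.05), the tool named by the study. The quasi-likelihood test of edgeR 4.0.16 is given beside it, and limma 3.58.1 (voom), low-count and threshold settings and leaving out each sample were alternatives. DESeq2 and edgeR, each with and without the block, and limma-voom were tested on simulated data, and the other alternatives were not. The simulation held no replicate effect, so it does not show how the block fits act on paired samples. False calls without the block made up 28.1% in DESeq2 and 7.89% in edgeR with 200 changed genes. With 2000 changed genes they made up 7.37% and 4.13%, so a call by DESeq2 alone is less certain. Ratios were compared by exact permutation tests in SciPy 1.17.1.

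The labels give both groups the replicate numbers 1 to 3. Deviations from the group means correlated at 0.522, 0.524 and 0.614 between samples of the same number (11686 genes) and at 0.0734 or less between others. Because deviations cancel within a group, the low values between others follow in part from the high ones and add little. On the same-number correlations the numbers were taken as pairs, and a replicate block was fitted as an alternative.

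The members and lists were chosen with earlier results of these data known. Named genes are the 10 members, list genes and neighbours that were called, SMARCA4 and the 5 genes nearest to the members' median profile of within-number log2 folds (normalised count of at least 100, Euclidean distance). Genes not called that are named (PARP2, PARP6, PARP8, PARP15, OARD1, ADPRH, IRF1, BLM, SUMO3, DAXX, ATRX, the neighbours not called, and leukocyte markers other than LYZ) were chosen after their values were seen. SMARCA2 and the granulosa markers FOXL2, FSHR, AMH, CYP19A1 and INHA are given as the check of the cell line. HPF1 was matched through its older symbol C4orf27. Positions are from GENCODE release 44 on GRCh38. Protein sequences were not used here. Single genes of the lists that are not named are not reported here.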

Additional observations from a re-analysis of the deposited data

How the results depend on the processing

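All 10 members kept their direction and their side of the threshold in each of 14 alternatives, and 8 were called higher in every one. The alternatives at an adjusted p under 0.01 and with the fold threshold are stricter cuts on the main fit. In these no direction could change and no further member could be called. The replicate block changed no call of a member, and among the list genes it changed calls, in one tool or both, for PARP6, PARP8, TIPARP, ADPRHL2, OARD1 and IRF1, whose block values are given above. The count of all genes called lower, 294, was the least stable. It was 146 with edgeR, 169 with limma-voom, 1035 with the replicate block in DESeq2, 809 with it in edgeR, 130 at an adjusted p under 0.01 and 11 for genes that also moved by an absolute log2 fold of 1 or more, and leaving out 1 sample gave 117 (without BRG1 sample 2) to 596 (without BRG1 sample 3). The number of other PARP genes called higher, 2, was 1 with edgeR, with limma-voom and with the fold threshold and 4 with the block in either tool. Among ADP-ribose enzymes and cofactors the 1 gene called higher became 0 with edgeR, with limma-voom, at 0.01 and with the fold threshold, and 0 to 1 with samples left out. The 0 called lower became 1 with the block in either tool and ranged from 0 to 1 with samples left out (1 without Control sample 2 or BRG1 sample 3). Leukocyte markers called higher ranged from 0 to 1 (0 without BRG1 sample 2). Neighbouring genes called higher were 5, and 3 with edgeR, and those called lower ranged from 0 to 1 (1 without BRG1 sample 1). The cause of these shifts was not tested. The ratio tests cannot pass 0.05 in 3 samples against 3, and with pairs their smallest p is 0.25. Genes with few Control counts, SP100 and SP140L among them, have folds of low precision.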

Other observations

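The genes whose folds within the 3 replicate numbers lay nearest to the median profile of the called members (3.54, 3.45 and 3.75 on the log2 scale), among 11677 other genes whose mean normalised count reached 100, were IL15RA (Euclidean distance 0.467), USP18 (0.541), KLF5 (0.624), TP53I11 (0.744) and SRPX (0.787). IL15RA, a receptor chain for interleukin 15, gave 3.45, 3.07 and 3.50, and USP18, which removes the interferon-induced modifier ISG15, gave 3.07, 3.72 and 3.69. KLF5, a transcription factor of epithelia, gave 3.84, 3.80 and 3.33. The likeness rests on 3 values per gene and is a description.

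PTPRC, the leukocyte antigen CD45, had mean normalised counts of 505 (Control) and 520 (BRG1) although the T and B cell markers CD3E, CD2 and MS4A1 were at or near 0. Of the granulosa markers AMH had 295 and 408 normalised counts on average in Control and BRG1 samples, INHA 41.9 and 38.2, and CYP19A1, the aromatase gene, 23.3 and 322, whereas FSHR averaged 0.252 and 1.81.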
